A study of Solanum lycopersicum with 10 samples.

Results

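The clones described here were chosen by their measured values: they gave lower log2 ratios in leaves of tomato plants with an antisense Rboh gene than in wild type leaves, both in systemic leaves of wounded plants and in control leaves of unwounded plants, and changed little with wounding. The members had to lie at -0.8 or less for the antisense Rboh minus wild type difference of group means in both treatments. Their wounding difference, systemic minus control leaves, had to lie between -1 and 1 in wild type, and its average over both genotypes between -0.5 and 0.5. This rule kept 60 of 11153 clones. Of the 82 clones that met the genotype limits, the wounding limits removed 22.

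Rboh genes encode respiratory burst oxidase homologs, NADPH oxidases of the plant plasma membrane that make superoxide on the outer side of the cell. In tomato and other plants the reactive oxygen species that follow act as signals in the response to injury, to pathogens and to abscisic acid, and in growth. An antisense copy is a means of lowering the transcripts of such a gene. A leaf beyond the site of injury answers with its own change in transcripts, and this is called the systemic wound response.

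RNA of each leaf sample was hybridised to a 2-colour array against a common pool of the study's RNA, and every value here is a log2 ratio to that pool, shifted so that the median clone of an array lies at 0. The 4 groups were systemic leaves of wounded antisense Rboh plants (3 arrays), control leaves of unwounded antisense Rboh plants (2 arrays), systemic leaves of wounded wild type plants (2 arrays) and control leaves of unwounded wild type plants (3 arrays). A systemic leaf is one that the labels call so and ascribe to a wounded plant, with no word on which leaf was injured. Arrays are called by the replicate numbers of their titles, and the control antisense Rboh arrays are therefore replicates 2 and 3. Their descriptions number these arrays 1 and 2, and for the other groups both numbers are the same. The labels do not give the cultivar, the promoter of the antisense copy, the number of transgenic lines, the age of the plants or the time after wounding. Nor do they state whether replicate arrays stand for different plants. The SDs and the test therefore describe array-to-array spread, part or all of which may be technical. Signal intensities were not analysed here, and precision is limited by how few arrays there are.

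The dyes are not named, so which way the ratio runs is unsettled, and values are given for sample over pool. Over all clones, control wild type replicate 3 correlated at -0.33 and -0.43 with systemic antisense Rboh replicates 1 and 3. It correlated at 0.33 and 0.20 with control wild type replicates 1 and 2 and at 0.14 and 0.27 with systemic wild type replicates 1 and 2, and the 8 pairs of arrays within a group lay between 0.19 and 0.43. These correlations stay as they are if all arrays are turned. The pair with the highest correlation of all, 0.45, was control antisense Rboh replicate 2 with control wild type replicate 1, of different genotypes. Both arrays are number 1 in their descriptions. Of the other arrays with that number, systemic antisense Rboh replicate 1 correlated with them at 0.40 and 0.09. Systemic wild type replicate 1 correlated with them at -0.25 and 0.15. With the sign turned, all 60 clones are higher in antisense Rboh leaves by the same amounts, each call of a lower clone becomes a call of a higher one, each wounding difference changes sign, and each value above the pool lies below it. A ratio to a pool orders the samples for 1 clone and says nothing of how one clone's level compares with another's. The clone identifiers are not paired with gene names in the files, and 0 of them were found in RefSeq's gene table for assembly SLM_r2.1. No gene, protein or pathway is therefore named for any member, no sequence is shown, and neither the Rboh transcript itself nor leaf markers could be looked up among the members. In bulk leaf RNA, fewer cells of a type and less RNA per cell cannot be told apart.

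On every array most members stood on the same side of the pool, below it in antisense Rboh leaves and above it in wild type leaves. Their median log2 ratio was -0.65, -0.57 and -0.69 on systemic antisense Rboh replicates 1, 2 and 3 and -0.60 and -0.66 on control antisense Rboh replicates 2 and 3. It was 0.53 and 0.51 on systemic wild type replicates 1 and 2, and 0.45, 0.39 and 0.84 on control wild type replicates 1, 2 and 3. The 5 antisense Rboh medians and the 5 wild type medians did not overlap, which the rule favours. In 57 members both antisense Rboh group means were below the pool and both wild type group means above it. In 30 members this held for all 10 single arrays. The rule favours both counts too, and the shares over all clones were not counted.

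**Figure D1:**
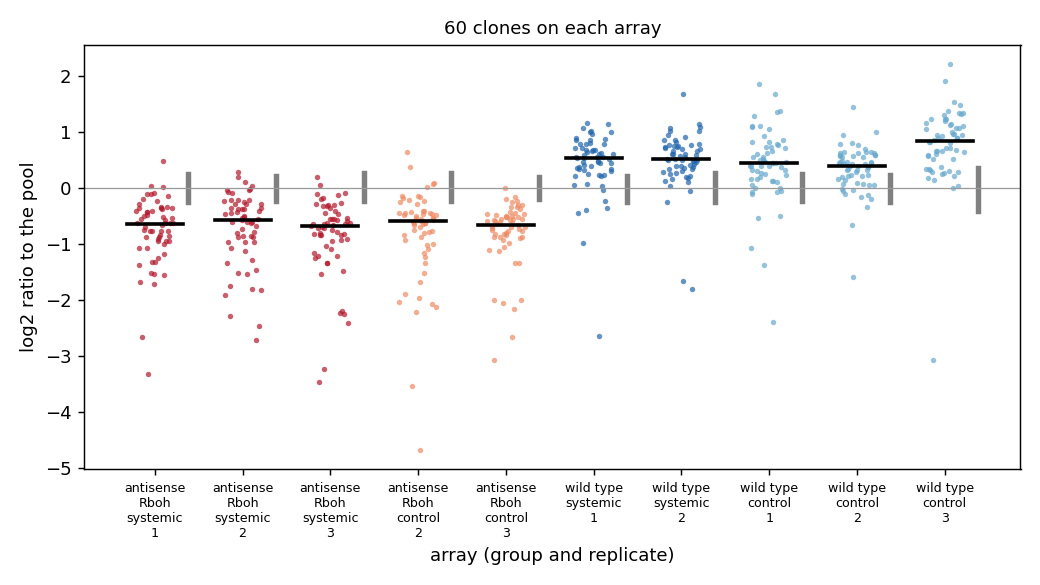
Log2 ratio to the pool (vertical axis) of the 60 clones on each of 10 arrays (horizontal axis). Points are clones, black bars are medians over the clones, and grey bars span the middle 50% of all 11153 clones on that array. The medians lie between -0.69 and -0.57 on antisense Rboh arrays and between 0.39 and 0.84 on wild type arrays.

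The size of the difference varied widely among the members. The mean of both genotype differences ran from -2.70 to -0.81, with a median of -1.07 beside -0.01 over all clones. In 7 members it was 4-fold or more lower in antisense Rboh leaves, in 30 it was between 2-fold and 4-fold lower, and in 23 it was less than 2-fold lower. These values were used to choose the members and are a description.

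All 5 antisense Rboh arrays lay below all 5 wild type arrays in 51 members, as they did in 3.53% of all clones. In the fit over all clones (limma, Benjamini-Hochberg adjusted p under 0.05), 48 members were called lower over both treatments, beside 1.4% of all clones. In systemic leaves alone 9 members were called lower, beside 0.251% of all clones, and in control leaves 10 were, beside 0.134%. In 5 members the call was made in both treatments: cLED6D20, cLED11K1, cLEG28E17, cLEG41N16 and cLEC40G5. Over all clones this share was not counted, and it cannot exceed the 0.134% called lower in control leaves. The rule used these same contrasts, so nothing is read from the counts. They also moved with single arrays, as did the number of all clones called lower, which was 156 over both treatments, 28 in systemic leaves and 15 in control leaves. Over both treatments, 23 and 30 members (of 46 and 56 clones called) were called without control antisense Rboh replicates 2 and 3, and 19 and 25 (of 30 and 42) without systemic wild type replicates 1 and 2. In systemic leaves 1, 1 and 3 members (of 3, 9 and 6 clones) were called without systemic antisense Rboh replicates 1, 2 and 3. The count there was 0 (of 0) without either systemic wild type array and 14 (of 54) without control wild type replicate 3. In control leaves 0 and 1 members (of 0 and 1 clones) were called without control antisense Rboh replicates 2 and 3, and 4 and 2 (of 15 and 3) without control wild type replicates 1 and 3.

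**Figure D2:**
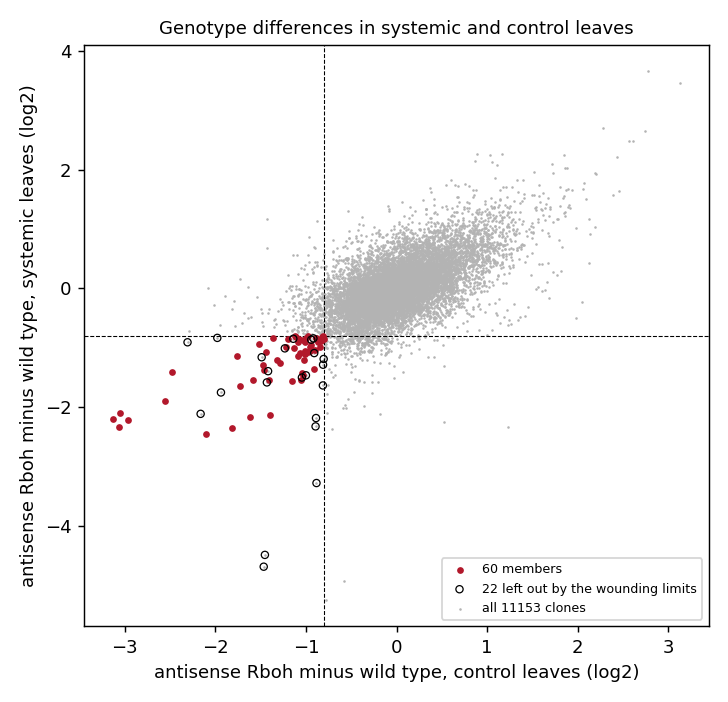
Antisense Rboh minus wild type difference in control leaves (horizontal axis, log2) and in systemic leaves (vertical axis, log2) for all 11153 clones. Red points are the 60 members, open circles the 22 clones left out by the wounding limits, and dashed lines the limit of -0.8. The member farthest to the left lies at -3.13 in control leaves.

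The 4 largest differences belonged to clones with nearly the same profile. Clone cLES2B19 stood at -0.36, -1.75 and -2.41 in systemic antisense Rboh leaves and at -1.96 and -2.01 in control ones, against 0.67 and 1.01 in systemic wild type leaves and 1.85, 0.07 and 1.33 in control ones. Its mean difference over both treatments was -2.70 (SE 0.39), which is 6.52-fold lower in antisense Rboh leaves. The genotypes did not overlap, and the closest arrays were systemic antisense Rboh replicate 1 and control wild type replicate 2.

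Clone cLED11F18 stood at -0.71, -1.81 and -2.25 in systemic antisense Rboh leaves and at -1.90 and -2.01 in control ones, against 0.45 and 0.79 in systemic wild type leaves and 1.67, -0.03 and 1.90 in control ones. Its mean difference was -2.67 (SE 0.38), 6.37-fold lower. The same 2 arrays came closest to each other here. In both clones the spread lay in those groups: the SD of cLES2B19 was 1.04 in systemic antisense Rboh leaves (n = 3) and 0.92 in control wild type leaves (n = 3), and 0.03 in control antisense Rboh leaves (n = 2).

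Clone cLED6D20 stood at -0.95, -1.28 and -2.23 in systemic antisense Rboh leaves and at -2.22 and -2.05 in control ones, against 0.70 and 0.74 in systemic wild type leaves and 1.08, 0.09 and 1.31 in control ones. Clone cLED11K1 stood at -1.25, -1.14 and -2.19 in systemic antisense Rboh leaves and at -2.07 and -2.16 in control ones, against 0.59 and 0.56 in systemic wild type leaves and 1.11, 0.21 and 1.48 in control ones. Their mean differences were -2.59 (SE 0.29) and -2.58 (SE 0.27). In these clones too, control wild type replicate 2 was the lowest wild type array.

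The likeness of these profiles was measured as the root mean square gap of log2 ratios over the 10 arrays, a measure chosen after the values were seen. It was 0.15 between cLED6D20 and cLED11K1, whose values differed by at most 0.30 on any array. It was 0.25 between cLES2B19 and cLED11F18, and 0.45 at most for any pair of the 4 clones, with a gap of up to 0.89 on 1 array (cLES2B19 and cLED11K1), while each clone spanned 3.55 to 4.26 over the arrays. Among all other clones the nearest to cLED6D20 was cLED11K1, the nearest to cLES2B19 was cLED11F18, and in both cases the reverse was true. Whether such clones come from 1 transcript was not tested.

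**Figure D3:**
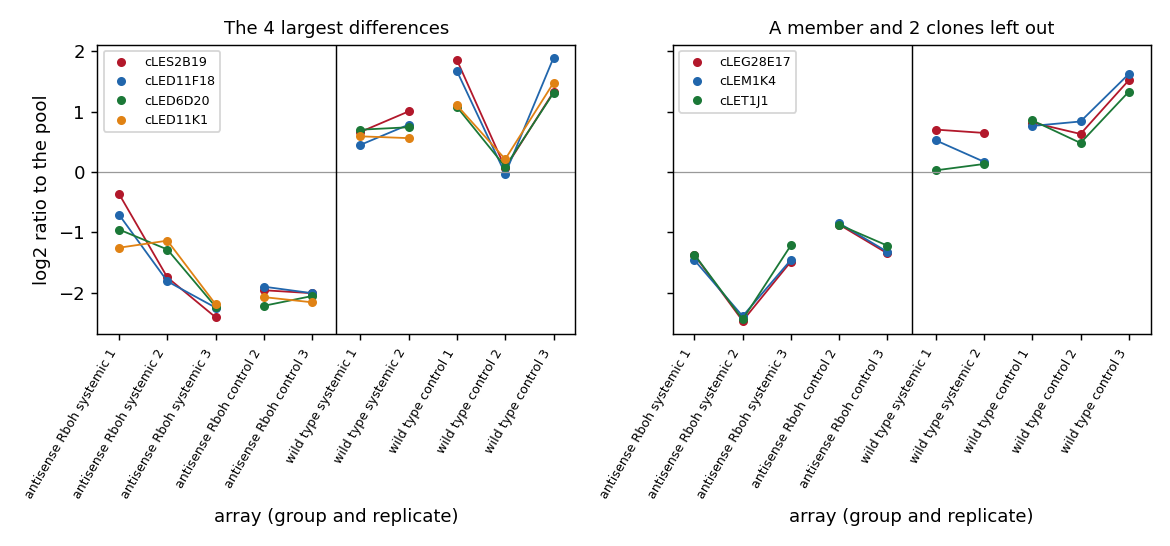
Log2 ratio to the pool (vertical axis) on each of 10 arrays (horizontal axis). Lines join arrays of 1 group only to guide the eye. Left, the 4 members with the largest mean genotype difference, all low on antisense Rboh arrays and near 0 on control wild type replicate 2. Right, member cLEG28E17 with cLEM1K4 and cLET1J1, clones left out by the wounding limits, which never differ by more than 0.68 from it on an array.

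Clone cLEG28E17 had another profile. It stood at -1.37, -2.47 and -1.48 in systemic antisense Rboh leaves and at -0.87 and -1.35 in control ones, against 0.70 and 0.65 in systemic wild type leaves and 0.82, 0.63 and 1.52 in control ones. Its mean difference was -2.28 (SE 0.26), 4.84-fold lower, and its lowest array was systemic antisense Rboh replicate 2. The clone nearest to it, cLEM1K4, lay within 0.48 of it on every array, and cLET1J1 within 0.68. Neither is a member: their average wounding changes were -0.70 and -0.72, past the limit of -0.5, and that of cLEG28E17 was -0.49. This member met the rule in only 4 of the 10 fits that left out 1 array. The wounding limits therefore separate clones of almost equal profile.

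The sixth largest difference was that of cLEG41N16, which stood at -0.77, -1.08 and -1.53 in systemic antisense Rboh leaves and at -2.12 and -1.06 in control ones, against 0.62 and 0.91 in systemic wild type leaves and 1.28, 0.45 and 1.16 in control ones. The difference was -2.22 (SE 0.26), 4.67-fold lower, with no overlap between the genotypes. Its root mean square gap, the measure of likeness used above, was 0.42 to cLED6D20, within the range among the first 4 clones. The gaps to cLED11K1 (0.47), cLES2B19 (0.53) and cLED11F18 (0.54) were larger than any among those 4 clones.

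Over all members, the nearest other clone was itself a member for 22 of 60, and for 14 of the 20 with the largest differences. Members make up 0.538% of all clones. The gap uses the same array values as the rule, which favours members as neighbours, so nothing is read from these counts. Clones cLED11D11 and cLED11G23 were nearest to each other, with a gap of 0.27, and so were cLED13H15 and cLEG12M9, with a gap of 0.39. Clone cLED13H15 was 3.72-fold lower in antisense Rboh leaves, with values of -1.56, -1.83 and -0.84 in systemic antisense Rboh leaves and -1.08 and -0.61 in control ones, against 0.88 and 0.65 in systemic wild type leaves and 1.05, 0.22 and 1.04 in control ones.

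**Figure D4:**
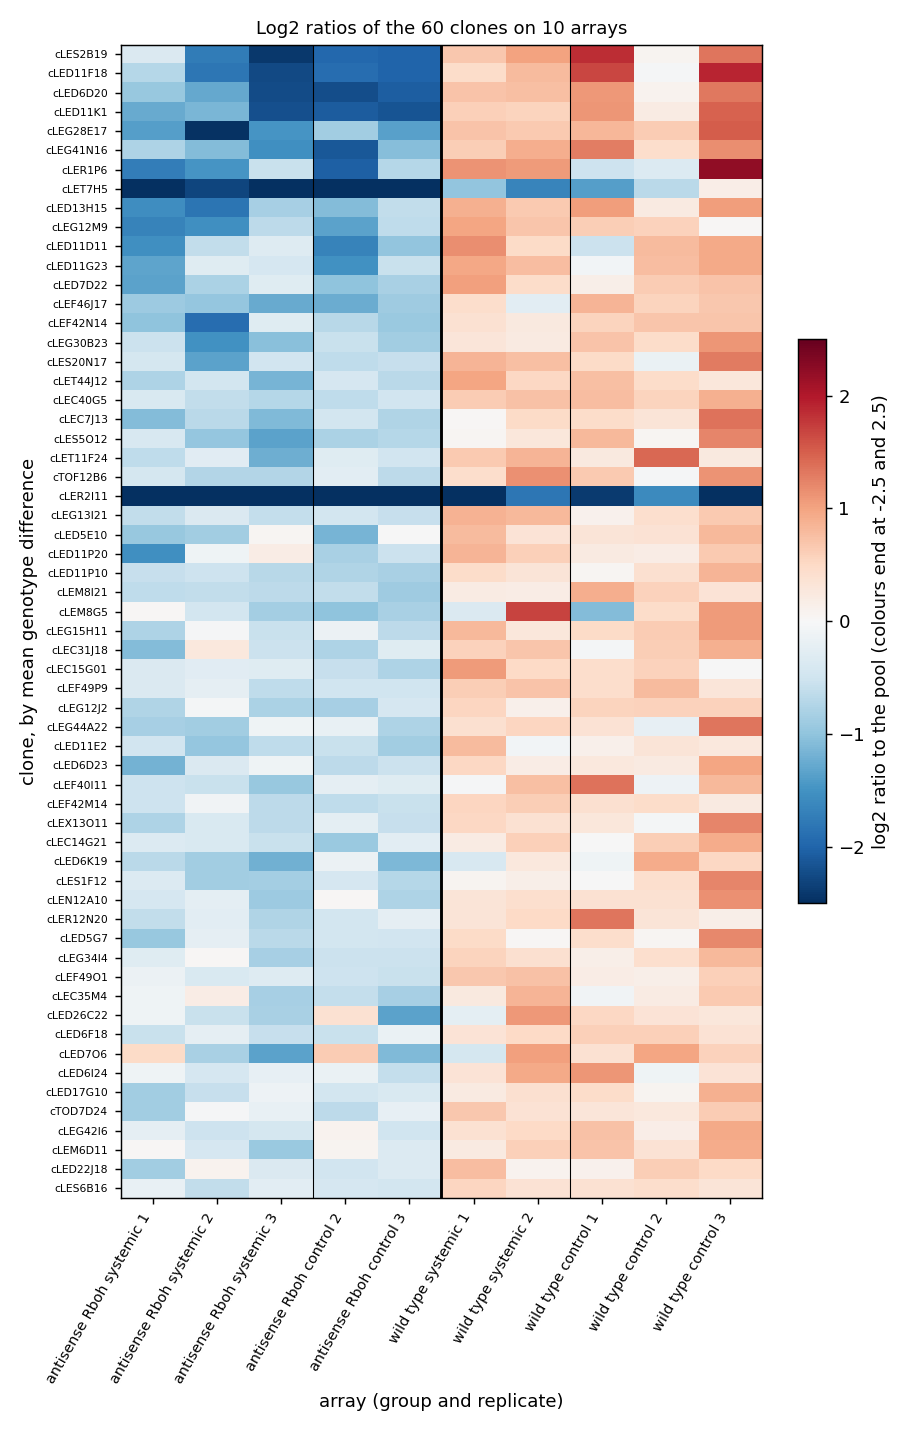
Log2 ratio to the pool (colour) of each of the 60 clones (vertical axis, ordered by mean genotype difference) on 10 arrays (horizontal axis). Blue is below the pool and red above it, and the thick line separates antisense Rboh arrays from wild type arrays. Clone cLER2I11 is blue on all 10 arrays, and cLET7H5 is blue on all but control wild type replicate 3.

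The members with the steadiest values were not those with the largest differences. Clone cLEC40G5, with a pooled within-group SD of 0.15, stood at -0.39, -0.61 and -0.72 in systemic antisense Rboh leaves and at -0.63 and -0.48 in control ones, against 0.64 and 0.73 in systemic wild type leaves and 0.77, 0.55 and 0.88 in control ones. Its mean difference was -1.27 (SE 0.17), 2.42-fold lower, nearly the same in systemic (-1.25) and control leaves (-1.29). Clone cLES6B16 had the smallest SD, 0.14, and the smallest mean difference of all members, -0.81 (SE 0.17), with no overlap between the genotypes.

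At the other end, cLER1P6 had the largest SD, 1.02. It stood at -1.72, -1.47 and -0.56 in systemic antisense Rboh leaves and at -2.03 and -0.70 in control ones, against 1.13 and 1.07 in systemic wild type leaves and -0.51, -0.35 and 2.21 in control ones. Without wounding, only wild type replicate 3 was above the pool. Clone cLEM8G5 (SD 0.91) stood at 0.02, -0.46 and -0.85 in systemic antisense Rboh leaves and at -1.01 and -0.82 in control ones, against -0.36 and 1.68 in systemic wild type leaves and -1.08, 0.46 and 1.06 in control ones. Its genotypes overlapped on several arrays, and it met the rule in 3 of the 10 fits with an array left out, the fewest of any member. The median SD over the members was 0.42, beside 0.44 over the 273 clones higher in antisense Rboh leaves by the mirrored rule (0.8 or more in both treatments, same wounding limits) and 0.33 over all clones.

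In 3 members the wild type means were not both above the pool. Clone cLER2I11 lay below the pool on all arrays, at -3.32, -2.71 and -3.46 in systemic antisense Rboh leaves and -4.68 and -3.07 in control ones, against -2.64 and -1.81 in systemic wild type leaves and -2.40, -1.59 and -3.07 in control ones. The genotypes overlapped, and its difference of -1.23 (SE 0.35) was not among the calls. Clone cLET7H5 stood at -2.66, -2.29 and -3.24 in systemic antisense Rboh leaves and at -3.54 and -2.65 in control ones, against -0.99 and -1.66 in systemic wild type leaves and -1.38, -0.66 and 0.18 in control ones. These groups did not overlap, and the difference was -1.94 (SE 0.32), 3.84-fold lower. Clone cLED6K19 was the other exception, with a systemic wild type mean of -0.07. Over the members, 39 lay farther below the pool in antisense Rboh leaves than above it in wild type leaves. This count takes in cLER2I11 and cLET7H5, whose wild type means were below the pool. Of the 39, 19 were among the 20 largest differences and 20 among the other 40. The rule and the ranking used these same group means, and the split was not counted over all clones.

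The wounding differences were bounded by the rule and were small. They ran from -0.66 to 0.71 in antisense Rboh leaves, with 31 members above 0 and 29 below, and from -0.70 to 0.65 in wild type leaves, with 27 above and 33 below. The highest wounding differences in antisense Rboh leaves were those of cLER2I11 (0.71) and cLED6D20 (0.65). The lowest were those of cLEG28E17 (-0.66) and cLED13H15 (-0.56). The interaction, the wounding difference in antisense Rboh leaves minus that in wild type leaves, ran from -0.73 to 1.07 with a median of 0.01, and lay within 0.3 of 0 in 39 members. The genotype difference was larger in control leaves in 32 members and in systemic leaves in 28. The highest interaction was that of cLET7H5 (SE 0.63). By limma, 0 members were called for the interaction, beside 0% of all clones. An unadjusted p under 0.05 was found for 0 members and for 266 of all clones, fewer than the 557.65 expected under chance. The limits on wounding also bound the interaction.

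Control wild type replicate 3 had a wider spread of values than the other arrays, which was not tested. The interquartile range of all clones was 0.77 on it and 0.39 to 0.52 on the others. It was the highest wild type array for 27 of the 60 members, and the share over all clones was not counted. Without it, the median control difference of the members was -0.96, beside -1.07 with it, and 44 members still had an control difference of -0.8 or less. The rule then found 60 clones, 42 of them members. The 5 antisense Rboh arrays lay below the remaining wild type arrays in 52 members, as they did in 4.44% of all clones. Without that array, 41 members (of 137 clones) were called lower over both treatments, beside 48 (of 156) with it.

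The members around the limit differed little from clones outside it. Just inside, cLES1F12 and cLEC35M4 had systemic differences of -0.8003 and -0.8023. Just outside, cLED22C14 had an control difference of -0.7970 and cLEF49K15 one of -0.7943. Membership also moved with the arrays: leaving out each array in turn, 14 members met the rule every time. The rule found 112 clones without control antisense Rboh replicate 2, of which 53 were members, and 99 without control wild type replicate 2, of which 48 were members. Of the 6 clones with the largest differences, cLES2B19, cLED6D20, cLED11K1 and cLEG41N16 met it every time.

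The letters that open a clone identifier were read as its cDNA library, and the number after them as a plate. The members came from 12 of 29 such libraries. Library cLED held 20 of them (33.3%, beside 22.5% of all clones), cLEG 10 (16.7%, beside 7.90%), and cLEC and cLEF 6 each, while these libraries held 19.8% and 8.57% of all clones. Library cLES held 5, and cLET, cLER and cLEM 3 each. Among the 273 clones of the mirrored rule the shares were 23.8% for cLED, 2.93% for cLEG and 29.7% for cLEC. Library cLEG held 10 members and 8 mirrored clones, and cLEC 6 members and 81 mirrored clones.

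**Figure D5:**
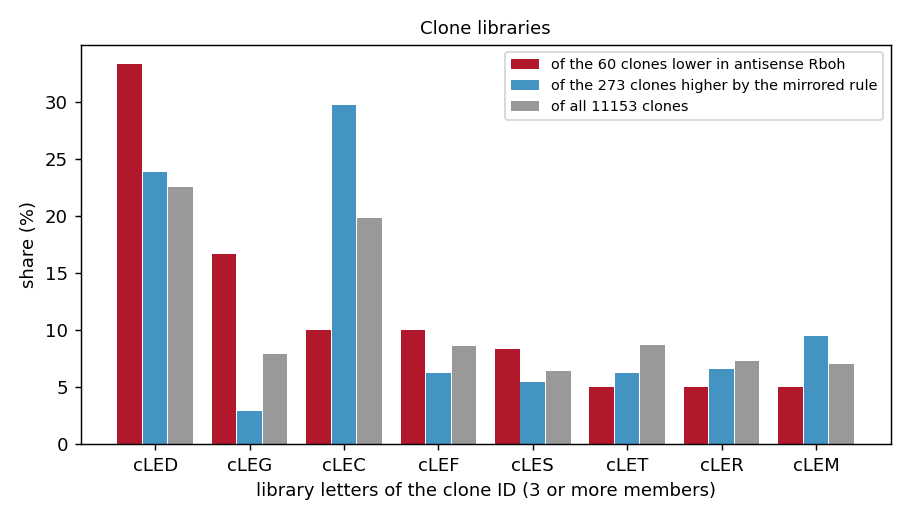
Share (vertical axis, %) of clones from each library with 3 or more members (horizontal axis). Bars are the 60 clones lower in antisense Rboh leaves, the 273 clones higher by the mirrored rule, and all 11153 clones. The cLEG bar is 16.7% for the lower clones, 2.93% for the higher clones and 7.90% for all clones, and cLEC runs the other way.

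Within cLED, 12 of the 20 members came from plates 6 and 11, which were singled out after the values were seen. These plates held 543 clones, of which 12 were members (2.21%), beside 8 of 1969 (0.406%) on the other cLED plates and 40 of 8641 (0.463%) outside cLED. The 7 members of plate 11 were all at least 2-fold lower in antisense Rboh leaves, with a median difference of -1.56. The 5 members of plate 6 ran from -2.59 to -0.86. The mirrored rule held for 18 of the 543 clones (3.31%) and 47 of the 1969 (2.39%), and the SD of the mean genotype difference over clones was 0.58 on the 2 plates and 0.45 on the other cLED plates. Of 37 pairs of members from 1 plate, 1 pair sat in adjoining wells, cLEF42N14 and cLEF42M14. Where the clones were printed on the array is not given in the sources used here, and a part of plate or spot position in these values was not tested.

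Clones cLEF46J17 and cLEM8I21 had the lowest difference among the members of their libraries. In library cLEM, cLEM1K4 was lower (-2.14) but was left out by the wounding limits. Clone cLEF46J17 stood at -0.91, -0.96 and -1.25 in systemic antisense Rboh leaves and -1.24 and -0.88 in control ones, against 0.45 and -0.26 in systemic wild type leaves and 0.85, 0.56 and 0.68 in control ones, a difference of -1.45 (SE 0.19). Clone cLEM8I21 stood at -0.63, -0.62 and -0.65 in systemic antisense Rboh leaves and -0.61 and -0.89 in control ones, against 0.21 and 0.18 in systemic wild type leaves and 0.91, 0.57 and 0.34 in control ones, a difference of -1.10 (SE 0.17). In both clones the genotypes did not overlap.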

How the data were processed

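The table holds 11347 rows and 0 missing values for 10 arrays. The deposited values were taken as log2 ratios from their form. On the array with the lowest share, 99.7% of the values are the log2 of a ratio with 3 decimals, within 0.02 thousandths. That form does not show which way the ratio runs, and sample over pool is assumed. Per the labels, channel 2 held the sample and channel 1 the pool. For image software, background correction and scaling, the sources used here give nothing. Rows named failed or blank (194) were left out, and array medians were subtracted. With limma 3.58.1 (R 4.3.3), 1 mean per group was estimated from the 10 arrays for 11153 clones, and tests were two-sided, with Benjamini-Hochberg adjustment over all clones, 6 residual and 6.45 prior degrees of freedom. SDs are over arrays and SEs are limma's.

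The members, lists and naming rule were chosen with earlier results of these data known. Clones were named by rank: largest differences, smallest and largest SD, nearest to the limit, largest wounding changes in antisense Rboh leaves, and lowest member per library. Clones cLEM1K4, cLET1J1, cLED6K19, cLED11D11, cLED11G23, cLEG12M9, cLEF42N14 and cLEF42M14 were named after their values were seen. Alternatives were no centring, quantile and scale normalization, array weights, trend and robust eBayes, replicate blocks, an adjusted p under 0.1, the compared groups alone, kept failed rows, group medians and each array left out.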

Additional observations from a re-analysis of the deposited data

Results flagged for a closer look

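Rows marked as failed or blank were kept out of the comparisons. Of these 194 rows, 3 met the rule by which the members were chosen (1.55%, beside 0.538% of all clones). They lie outside the main measurement, and the difference in share was not tested. All 3 carried the mark of failed rows, and their mean genotype differences were -1.29, -1.23 and -0.81. In the last of them the genotypes overlapped. No group held 4 arrays, so single arrays were not tested for standing apart from their group.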

How the results depend on the processing

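Each count of members called lower is followed by the number of all clones called lower in that fit. Over both treatments the count of 48 (of 156) was within 1.5 times under each other setting and 19 (of 30) to 51 (of 200) over the fits lacking 1 array. In control leaves the 10 (of 15) became 0 (of 0) when only those groups were fitted and 2 (of 2) under robust eBayes with a trend. Over the fits lacking 1 array that kept 2 or more in each group, it was 2 (of 3) to 10 (of 15 or 16). In systemic leaves the 9 (of 28) became 16 (of 63) with quantile normalization and 25 (of 85) with array weights. It was 16 (of 57) when adjusted p values under 0.1 were accepted. Over the fits lacking 1 array that kept 2 or more in each group, it was 1 (of 3) to 14 (of 54). With a replicate block by title number the counts were 37 (of 81) over both treatments, 3 (of 5) in control and 4 (of 20) in systemic leaves, and by description number 48 (of 143), 7 (of 10) and 7 (of 30). Deviations of same-numbered arrays from their group means correlated at -0.35 to 0.34 by title number. By description number, the 6 pairs with a systemic wild type array lay at -0.35 to -0.11, while of the other 7 pairs 6 were above 0, up to 0.39, and 1 was at -0.16. In a group of 2 arrays the deviations mirror each other, so these pairs are not independent. All 6 signs would turn if the numbers of the systemic wild type arrays were exchanged. Since not every pair was above 0.1, the numbers were not taken as pairs. The interaction gave 0 calls among members in every fit. The rule found 92 clones with quantile normalization, 56 of them members, and 53 to 112 over the fits lacking 1 array. For the 19 clones named by rank, and not for those named after their values were seen, 322 values under other settings or without an array kept their side of the threshold, 28 lost the call, 11 gained it and 0 changed sign. The causes were not tested. A lone array left in its group is assumed to vary like the other groups. With few arrays and no signal intensities, how far dim spots limit these ratios is unknown.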

Other observations

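The 22 clones that met the genotype limits but not the wounding limits split into 17 with a higher and 5 with a lower average in systemic leaves, or 17 lower and 5 higher with the sign of the ratio turned. Of all clones, 3.95% were past the wounding limits with a higher and 2.47% with a lower average. The lowest genotype difference among them was that of cLED4I5, at -2.55, -1.54 and -2.74 in systemic antisense Rboh leaves and -3.24 and -2.76 in control ones, against a mean of 2.42 in systemic wild type leaves and -2.78, -1.52 and -0.30 in control ones. This clone was chosen after its values were seen.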
